A study of Caenorhabditis elegans with 2 samples.

Results

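The 336 genes annotated as nuclear tRNA genes on the autosomes of Caenorhabditis elegans were examined for occupancy by ZIP-11, a bZIP protein that binds DNA through a basic region next to a leucine zipper. They were taken as every gene of biotype tRNA on a nuclear chromosome other than X in the Ensembl annotation, and they make up 336 of 612 nuclear tRNA genes and of 46890 annotated nuclear genes. A gene counted as bound where the summit of a peak in the pooled thresholded list lay within 250 bp of its annotated start. By this measure 66 of the 336 genes were bound, 231 had only a summit in the longer ranked list, and 39 had no ranked summit.

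The study measured chromatin immunoprecipitation and sequencing in whole L4 larvae 52.5 hours old, grown from starved first-stage larvae after bleaching. Both samples come from strain OP761, which carries the transgene wgIs761, a zip-11 transgene tagged with TY1, EGFP and 3xFLAG together with unc-119(+), in an unc-119(tm4063) background. The tagged protein was precipitated with an antibody to GFP after sonication, and the 2 samples are biological replicates of 1 group, so no treatment or genotype could be compared. Whole animals were used, so tissues cannot be told apart, and the labels name no change to the endogenous zip-11 gene. The deposited lists hold peak intervals, a signal value for each peak and the irreproducible discovery rate (IDR), and no read counts, so the sequencing depth is unknown. Only 1 control alignment is named for the lists, and no precipitation from untagged animals or of another factor was analysed here.

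Transfer RNA genes are short genes read by RNA polymerase III. Their promoter lies inside the transcribed sequence, as an A box near the start and a B box near the end of the mature tRNA. The factor TFIIIC binds these boxes and brings TFIIIB to the upstream flank, where TFIIIB recruits the polymerase, and a run of T residues past the gene ends the transcript. Many tRNA genes are exact copies of each other, so that a short read from the gene body can match several places, and a copy is told apart by its flanks.

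The sequences on which the comparison of copies rests are printed here from the RefSeq genome of the WBcel235 build (ce11), 5′ to 3′ on the strand of the gene, with the first match to the A box word TNGCNNAG and to the B box word GTTCNANNC in capitals. The alanine gene ZK622.t1 (II:5292332-5292403, plus strand) stands for a set of 8 identical autosomal genes of which 4 were bound.
ZK622.t1: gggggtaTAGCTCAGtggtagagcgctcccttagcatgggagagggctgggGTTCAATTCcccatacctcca
The alanine gene F44A2.t1 (V:9318202-9318273, plus strand) has 1 copy and was bound.
F44A2.t1: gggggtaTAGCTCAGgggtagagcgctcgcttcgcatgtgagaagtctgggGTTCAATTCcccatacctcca
The lysine gene T23F1.t1 (V:15465086-15465158, plus strand) stands for 9 identical autosomal genes of which 2 were bound.
T23F1.t1: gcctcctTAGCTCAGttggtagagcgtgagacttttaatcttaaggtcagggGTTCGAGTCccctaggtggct
The proline gene T23F1.t2 (V:15465225-15465296, minus strand) stands for 11 identical autosomal genes of which 3 were bound.
T23F1.t2: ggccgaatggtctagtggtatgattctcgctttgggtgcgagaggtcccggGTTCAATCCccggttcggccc
The histidine gene Y7A9D.t1 (IV:16388456-16388527, plus strand) stands for 3 identical autosomal genes, all of which were bound.
Y7A9D.t1: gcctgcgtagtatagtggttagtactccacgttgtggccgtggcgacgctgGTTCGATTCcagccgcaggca
The glutamine gene C06E4.t1 (IV:7275327-7275398, plus strand) stands for 6 identical autosomal genes, none of which was bound.
C06E4.t1: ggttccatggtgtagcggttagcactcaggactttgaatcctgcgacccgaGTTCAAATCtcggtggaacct
All 6 sequences hold the B box word, and the A box word as written here was found in both alanine genes and in the lysine gene. ZK622.t1 and F44A2.t1 share 66 of 72 positions, and both box words are identical between them. Counted from 1 at the first base of ZK622.t1, they differ at T16G, C29G, A33C, G39T, G44A and G46T, with the base of ZK622.t1 given first.

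The lysine and proline genes T23F1.t1 and T23F1.t2 lie 66 bp apart on opposite strands and face each other. A single peak covers T23F1.t1 and most of T23F1.t2, and ends short of the start of T23F1.t2. The stretch V:15465081-15465301 of the same build is printed on the plus strand, with both genes in capitals, to show how close the 2 internal promoters lie and how many T residues fill the space between them.
T23F1 pair: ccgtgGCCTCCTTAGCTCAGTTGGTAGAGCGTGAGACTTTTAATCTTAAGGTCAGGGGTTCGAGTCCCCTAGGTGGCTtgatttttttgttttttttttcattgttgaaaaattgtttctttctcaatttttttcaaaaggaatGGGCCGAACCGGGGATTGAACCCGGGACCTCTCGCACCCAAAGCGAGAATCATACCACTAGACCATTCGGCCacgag
The peak spans V:15465011-15465290 with its summit at V:15465151, inside T23F1.t1 near its end. Its signal value was 105 in the pooled list, 53.5 in replicate 1 and 51.4 in replicate 2. A signal value is the peak caller's enrichment of a peak on a scale of its own list, as the authors deposited it, and is used here only to describe or rank peaks within a list. Where 2 genes share a summit, as here, both count as bound. This summit lies outside T23F1.t2, 145 bp from its start. The files cannot tell how such a peak divides between the genes of a pair, or whether T23F1.t2 has signal of its own.

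Autosomal tRNA genes were bound far more often than genes in general. The 66 bound genes are 19.6% of 336, with a 95% Wilson interval of 15.7% to 24.2%, against a background of 0.817% of all nuclear genes by the same rule. Of 19973 protein-coding genes 53 were bound, or 0.265% (0.203% to 0.347%). Of 346 genes of small nucleolar RNAs 42 were bound, or 12.1% (9.11% to 16%), between the tRNA genes and the coding genes. In the samples' own lists these genes did not stand below the tRNA genes in the same way, with 7.23% against 7.44% of autosomal tRNA genes in replicate 1, and 7.51% against 2.68% in replicate 2. All of these intervals cover counting error over genes only. Genes that share a summit or a sequence are not independent, so the true uncertainty is wider.

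The 66 genes drew on 61 summits, which are 16.8% of the 364 peaks in the thresholded list. Of these summits 51 lay at 1 tRNA gene and 10 lay within reach of 2 genes, while 5 genes had 2 summits. The summits were spread from rank 53 to the lower end of the list, with a median rank of 212, so tRNA genes held none of the very strongest peaks. The bound genes came from every autosome, with 13 of 66 on I, 15 of 57 on II, 14 of 64 on III, 13 of 71 on IV and 11 of 78 on V. The shares ran from 14.1% on V (8.06% to 23.5%) to 26.3% on II (16.6% to 39%), and these intervals overlap.

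The longer ranked list showed that signal at the remaining genes was also raised. Of the 336 genes, 297 (88.4%) had a ranked summit within 250 bp, against a background of 47.2% of all nuclear genes. These include the bound genes, and of the 270 genes not bound 231 had such a summit. The strongest 10% of peaks in that list, with signal values above 33, reached 207 genes or 61.6% (56.3% to 66.6%), against 7.10% of all nuclear genes and 6.54% of protein-coding genes. Of those 207 genes, 141 were among the 270 genes not in the thresholded list.

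The strongest ranked signal at a gene ran from 4.03 to 110.0 over the 297 genes, with a median of 44.8. All 111547 ranked peaks had a median of 18.3, protein-coding genes with a summit 19.9, and small nucleolar RNA genes 31.3. The plot of cumulative signal shows no gap or step between a bound and an unbound class of tRNA genes. Bound genes ran from 49.8 to 110.0 with a median of 72.1, and the others from 4.03 to 75.7 with a median of 38.1. The 2 ranges overlap, since 62 genes outside the thresholded list had a signal at or above 49.8, the lowest of a bound gene.

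**Figure D1:**
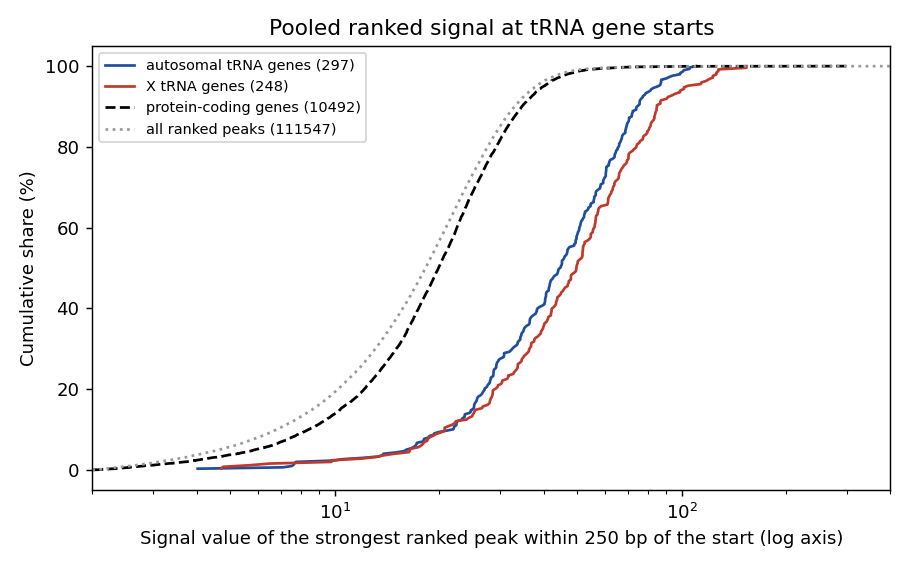
Cumulative share of genes or peaks (vertical axis, %) by the signal value of the strongest pooled ranked peak within 250 bp of the start (horizontal log axis), for autosomal tRNA genes, X tRNA genes, protein-coding genes and all ranked peaks. Genes with no ranked summit are left out. The autosomal tRNA curve rises smoothly around its median of 44.8, to the right of the coding curve with a median of 19.9.

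The lowest −log10 IDR in the thresholded list was 2.00, an IDR of 0.01, and the IDR measures how well a pair of peak rankings match, not height alone. Nearest to it on the inside were the glycine pair F49D11.t1 and F49D11.t2, with a shared signal of 56.5 and a −log10 IDR of 2.00, the isoleucine gene C27A2.t1, with 64.8 and 2.01, and the asparagine gene ZK507.t1, with 65.95 and 2.02. Nearest on the outside were the threonine gene F14F7.t1, with a signal of 64.1, and the aspartate gene F41A4.t1, with 60.4, both at a −log10 IDR of 1.96. Signals on the 2 sides of the threshold thus overlapped. The lowest signals of bound genes were 49.8 at the serine gene K11H3.t1 and 55.9 at the arginine gene C15C6.t1, both at a −log10 IDR of 2.10. The highest signals outside the list belonged to the leucine gene C43G2.t1 at 75.7, the lysine gene C09B9.t1 at 73.9 and the methionine gene F14B6.t2 at 71.9. All 3 were in a further list that the authors deposited as conservative, made from the same samples.

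The lists of the single samples were shorter, and few tRNA genes appeared in both. The conservative list held 62 autosomal tRNA genes (18.5%, against 0.785% of all nuclear genes), of which 46 were among the 66. The own thresholded list of replicate 1 held 25 of the 336 genes (7.44%, background 0.326%), and that of replicate 2 held 9 (2.68%, background 0.243%). Of the 66 bound genes, replicate 1 listed 24 and replicate 2 listed 8, with 3 in both lists and 37 in neither. All but 3 of the 66 nevertheless had a ranked summit in both samples.

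Without a threshold the 2 samples gave similar coverage of these genes. A ranked summit was present at 259 genes in replicate 1 (77.1%, background 24.1%) and at 256 in replicate 2 (76.2%, background 24.7%), with 213 genes in both and 34 in neither. The median signal was 25.1 in replicate 1, where all ranked peaks had 14.3, and 25.2 in replicate 2, where all ranked peaks had 13.3. Over the 213 genes the log2 signals of the samples had a Pearson correlation of 0.50 and a Spearman correlation of 0.45. Over the 63 bound genes with a ranked summit in both, the Spearman correlation was −0.16. Bound genes were defined on peaks made from both samples, and such a choice can itself lower the correlation within the set. The value therefore cannot decide whether the samples rank the bound genes alike. These correlations are across genes, which are not independent replicates.

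**Figure D2:**
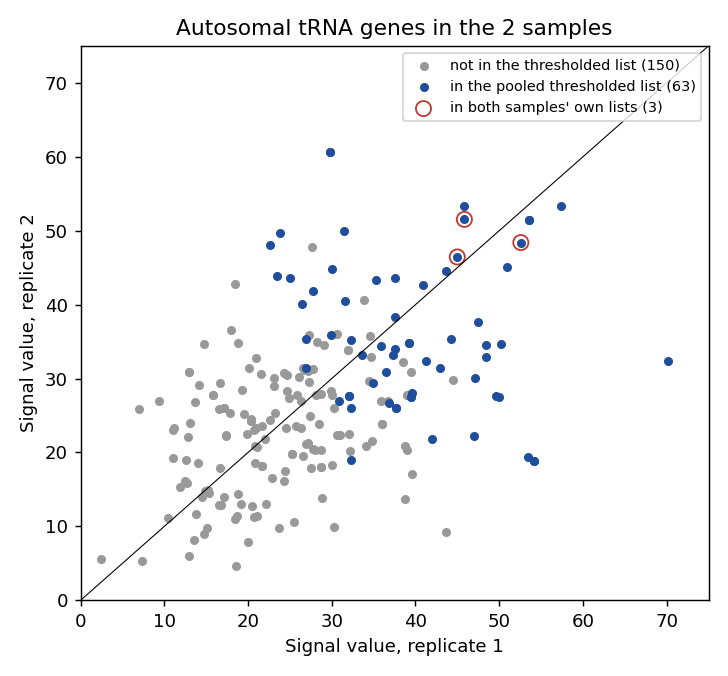
Signal value in replicate 1 (horizontal axis) and replicate 2 (vertical axis), each from the sample's own ranked list, for the 213 autosomal tRNA genes with a summit in both. Blue points are the 63 genes of the pooled thresholded list, rings mark the 3 genes in both samples' own thresholded lists, and the line marks equal values. The blue points fill the upper right, between 22.7 and 70.2 in replicate 1.

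Bound genes were higher in each sample taken alone. In replicate 1 their median was 38.4 (range 22.7 to 70.2, 64 of 66 genes with a summit), against 21.6 (2.47 to 44.4, 195 of 270 genes) for the others. In replicate 2 it was 34.8 (18.8 to 60.7, 65 of 66 genes), against 22.1 (3.06 to 49.6, 191 of 270 genes). The ranges overlap in both samples. The samples contributed to the pooled list, so this difference follows in part from how bound genes are defined, and it was not tested.

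The highest signal at an autosomal tRNA gene was 110.0, at the threonine gene F52C9.t1 (III:5305905-5305976, plus strand) within an intron of F52C9.5. Its values were 57.3 in replicate 1 and 53.4 in replicate 2, and its summit, rank 53 of 364, lay 38 bp upstream of the start. The T23F1 pair printed above followed with 105. The alanine gene ZK622.t1 had 101 in the pooled list, 52.6 in replicate 1 and 48.4 in replicate 2.

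ZK622.t1 was 1 of the 3 genes in both samples' own lists, with the lysine gene M01E5.t1 and the serine gene ZC455.t1. M01E5.t1 (I:13297673-13297745, minus strand) had a pooled signal of 98.9, with 45.8 in replicate 1 and 51.5 in replicate 2. ZC455.t1 (V:12780386-12780467, minus strand, within an intron of ZC455.1) had 92.1, with 45.0 and 46.4. These 3 genes were picked for passing both thresholds, so their being high in both samples follows from that choice. Other strong genes stood high in 1 sample's list and lower in the other's. The alanine gene F44A2.t1 had a pooled signal of 101. Its 70.2 was the highest of the autosomal tRNA genes in replicate 1. It had 32.4 in replicate 2, where it was not in the thresholded list. The serine gene F42A10.t1 (III:6158778-6158859, plus strand) had 87.2 in the pooled list. Its 60.7 was the highest of the autosomal tRNA genes in replicate 2. It had 29.7 in replicate 1, where it was not in the thresholded list. The histidine gene Y7A9D.t1 reached 94.3 in the pooled list and 50.03 in replicate 2, and had no ranked summit within 250 bp in replicate 1.

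The other strong genes were of varied isotypes. The alanine gene F15B9.t1 (V:13003509-13003580, minus strand), in an intron of inft-2, had 99.1 in the pooled list, 45.8 in replicate 1 and 53.4 in replicate 2. The glycine gene Y43D4A.t2 (IV:16776088-16776159, plus strand) had 90.4, 50.9 and 45.1 in the same order. The valine gene T28D6.t1 (III:11353029-11353101, plus strand) had 87.4, 47.5 and 37.7. These 3 genes were above the median of autosomal tRNA genes in each sample (25.1 in replicate 1 and 25.2 in replicate 2). None of them was in both samples' own thresholded lists. The isoleucine gene F33G12.t1 (II:5032771-5032844, plus strand), whose annotated sequence has no exact match among the other tRNA genes, had 86.9, 43.7 and 44.6.

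By the amino acid that the tRNA carries, bound genes were found in 17 of the 21 named isotypes. Glycine, the largest with 35 genes, had 10 bound (28.6%, interval 16.3% to 45.1%), and alanine had 7 of 21 (33.3%, 17.2% to 54.6%). Isoleucine had 5 of 16 (31.2%), threonine 5 of 20 (25%) and lysine 5 of 28 (17.9%). Leucine and proline, with 22 genes each, had 3 bound apiece (13.6%, 4.75% to 33.3%). These intervals overlap for all of the isotypes named. A summit shared by a pair counts for both genes here, as at the glycine genes C12C8.t1 and C12C8.t6. Isotype shares with each summit given to its nearest gene were not computed.

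No gene was bound for glutamine (0 of 12), tyrosine (0 of 11), phenylalanine (0 of 8) or selenocysteine (0 of 1, the gene K11H12.t1), nor were the 2 genes whose isotype is undetermined. A count of 0 of 12 has an upper Wilson bound of 24.2%, and 0 of 11 one of 25.9%, so these counts cannot be separated from the share of 19.6% over all 336 genes. Nor were these isotypes alike in signal. Glutamine genes had a ranked median of 51 and a maximum of 69.1, while tyrosine genes had a median of 29.2 and a maximum of 62.0. The glutamine median was above the 44.8 of the 297 autosomal genes with a ranked summit. In each of these 2 isotypes 2 genes had no ranked summit and are left out of the median.

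**Figure D3:**
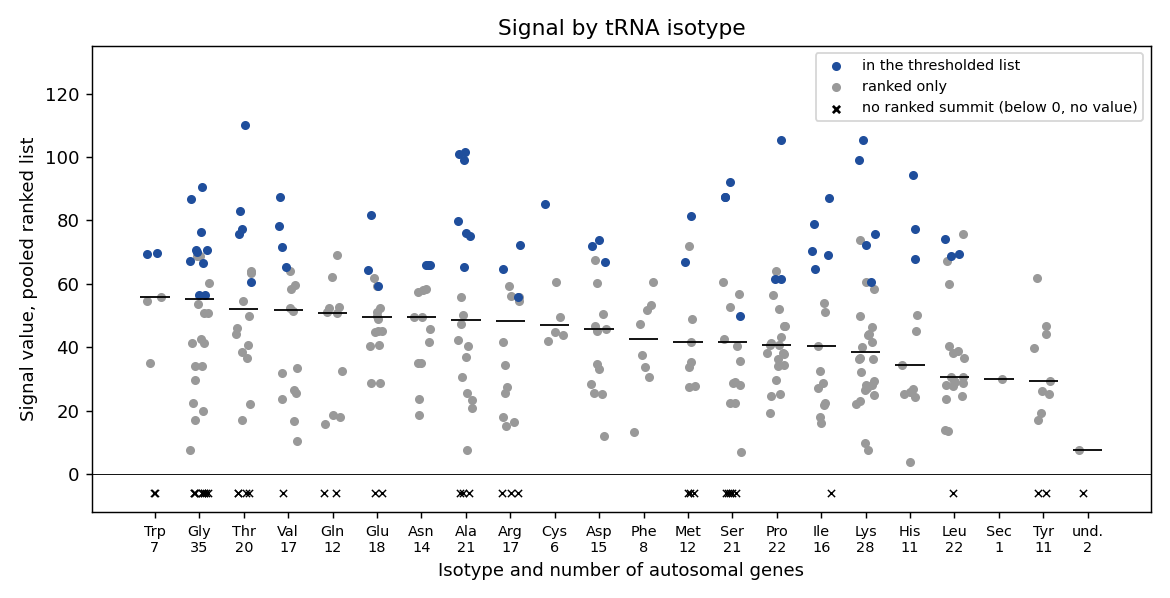
Signal value of the strongest pooled ranked peak (vertical axis) at each autosomal tRNA gene, by isotype (horizontal axis, with the number of genes, ordered by median). Blue points are in the thresholded list, grey points are ranked only, crosses below 0 mark genes with no ranked summit and therefore no value, bars are medians and und. stands for undetermined. Glutamine (Gln) sits high with no blue point, while lysine (Lys) and histidine (His) have low medians, several blue points and maxima of 105 and 94.3.

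Medians and bound counts did not follow the same order across isotypes. Tryptophan genes had the highest median (56, 2 of 7 bound), and glycine (55.2), threonine (52.2), valine (51.9, 4 of 17 bound) and glutamine came next. These medians leave out genes with no ranked summit. Such genes were 2 of 7 for tryptophan, 9 of 35 for glycine, 4 of 20 for threonine, 1 of 17 for valine and 2 of 12 for glutamine. The order therefore holds only for genes with a value. Histidine had 3 of 11 genes bound and a median of 34.5. The strongest gene of each remaining isotype was F53F8.t1 for cysteine at 85.1, Y69A2AR.t2 for glutamate at 81.7, T15B12.t1 for methionine at 81.3, C14B9.t2 for leucine at 74.1, Y105C5B.t1 for aspartate at 74.0, F35H8.t1 for arginine at 72.3 and F57G8.t1 for asparagine at 66.1. For leucine that gene is the strongest of the bound genes, since the unbound C43G2.t1 was higher.

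The tryptophan genes include the classical suppressor loci sup-5, sup-24 and sup-29, in which altered anticodons were found to read a stop codon. The gene sup-5 (III:8678497-8678568, minus strand), in an intron of fli-1, was bound with a pooled signal of 69.7, 35.9 in replicate 1 and 34.3 in replicate 2. The gene rtw-6 (IV:7344156-7344227, minus strand) was bound with 69.3, 22.7 and 48.1. The gene sup-24 was ranked only, with 56, 30.6 and 22.4, and sup-29 had no ranked summit in any of the 3 lists. These 4 genes have the same sequence.

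Identical copies of a gene differed widely. The 336 genes hold 137 distinct sequences, and 43 sequences occur in at least 2 autosomal genes. Of these 43 sets, 24 had both bound and unbound genes, 18 had no bound gene, and 1 had all its genes bound. With each summit given to its nearest gene only, the counts were 23, 19 and 1. Among the 23 sets of at least 5 genes, 19 had a bound gene, none was bound throughout and 4 had no bound gene.

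The largest set, 18 glycine genes, had 7 bound, and its ranked signals ran from 7.62 to 90.4, an 11.9-fold range over genes of the same sequence. Its 2 lowest genes, Y51H4A.t3 (7.62) and Y51H4A.t5 (17.1), lie in windows where only 44.2% of 31-base words occur once in the genome, and without them the range was 4.53-fold. The 11 proline genes of the T23F1.t2 sequence ran from 24.7 to 105 (4.27-fold), with 3 bound, and the 9 lysine genes of the T23F1.t1 sequence from 22.1 to 105 (4.77-fold), with 2 bound. The summit of the T23F1 pair, which lies inside the lysine gene, sets the maximum of both sets. Without that pair the ranges were 2.50-fold for proline and 3.35-fold for lysine. The sets were defined by gene bodies that are the same base for base, so the box words could not differ between high and low copies. A comparison within a set therefore cannot decide whether those words matter. Whether flanks, place in the genome or the assignment of reads moves with these differences was not tested beyond the measures given below.

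**Figure D4:**
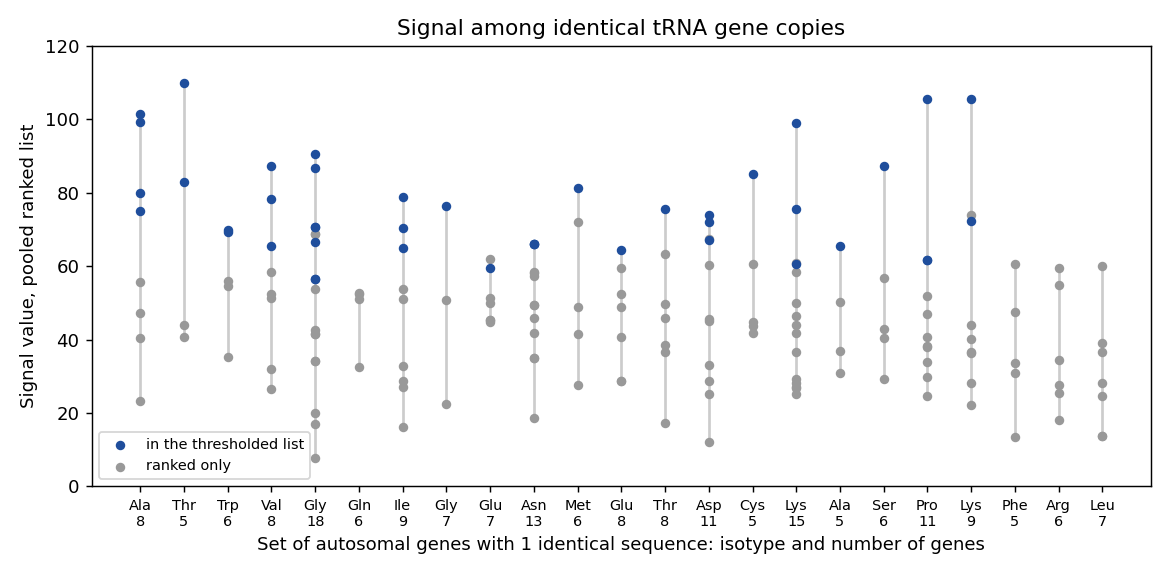
Signal value of the strongest pooled ranked peak (vertical axis) at genes of each set of at least 5 identical autosomal tRNA genes (horizontal axis, with isotype and number of genes, ordered by median). Blue points are in the thresholded list, grey points are ranked only, lines span the range, and genes with no ranked summit are left out. Most sets mix blue and grey points, and the set of 18 glycine genes spans 7.62 to 90.4.

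The 8 alanine genes of the ZK622.t1 sequence had the highest median of these sets, 65.4. Its 4 bound genes were ZK622.t1, F15B9.t1, Y65A5A.t2 with 79.97 and Y7A9D.t2 with 74.98, and its lowest was M03A1.t1 with 23.3. Of the 7 copies of this sequence on X, 6 were bound. The 3 histidine genes of the Y7A9D.t1 sequence, all bound, had 94.3 at Y7A9D.t1, 77.3 at W09G10.t1 and 68.0 at Y65A5A.t4. Of the 8 copies of this sequence on X none was bound, and 4 had no ranked summit. Among those 4, 3 lie in an array where under 5% of the 31-base words around the gene occur once in the genome. Other unbound X copies had a ranked summit and mostly unique windows. These include C06G1.t1 (87.7% of words occurring once), F28H6.t2 (85.8%) and C49F5.t1 (85.6%). Whether uniqueness moves with the missing summits was not tested. The 6 glutamine genes of the C06E4.t1 sequence had ranked values from 32.5 to 52.7 at 4 genes and none at 2, and none of its 9 copies on X was bound.

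Genes with many copies were bound more often than genes with 1 copy. Of 163 genes whose sequence occurs at least 10 times among the nuclear tRNA genes, 42 were bound (25.8%, 19.7% to 33%), against 11 of 86 single-copy genes (12.8%, 7.29% to 21.5%). The difference is 13.0 percentage points, with a 95% Newcombe interval of 2.37 to 22 that covers counting error over genes only. The ranked medians were 49.8 and 31.5. The classes between did not form a steady trend, with 6 of 30 genes bound at 2 to 3 copies and 7 of 57 at 4 to 9 copies, and signal and copy number had a Spearman correlation of 0.19 across genes. On X the shares were 30.5% at 10 copies or more and 21.1% at 1 copy. With each summit given to its nearest tRNA gene only, the difference was 11.1 points with an interval of 0.830 to 19.8. It was not computed in the other lists or windows. The strongest single-copy genes were F44A2.t1 (101), F42A10.t2, a serine gene that shares the summit of F42A10.t1 (87.2), and F33G12.t1 (86.9). Copies were counted by exact annotated sequence. By that count F33G12.t1 is among the 86 single-copy genes, although no 31-base word inside it is unique in the genome.

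Copies limit how reads can be placed. In 56 of the 66 bound genes, and in 251 of all 336, no 31-base word inside the gene is unique in the genome. The flanks are mostly unique. In the window of 250 bp on each side of the start a median of 88.2% of such words occur once at bound genes and 88.1% at the others. How the authors treated reads that match several places is not given in the sources used here.

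Of the 336 genes, 188 lie inside an intron of a protein-coding gene, in 152 host genes, and 139 lie outside coding genes. The 2 classes had similar shares, with 37 of 188 intronic genes (19.7%, 14.6% to 25.9%) and 27 of 139 genes outside (19.4%, 13.7% to 26.8%). The difference is 0.256 percentage points, with an interval of −8.67 to 8.74, so a difference of several points in either direction could not be detected. Of 6 genes that overlap an exon 2 were bound, and of 3 that overlap a coding gene in part none was. The 2 are Y69A2AR.t2, a glutamate gene over an exon of mdf-2, a spindle checkpoint gene, with 81.7, and K02D7.t1, an aspartate gene, with 67.0.

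The strand of the host gene made no detectable difference. Of genes that overlap a coding gene, 21 of 115 on the same strand were bound (18.3%) and 18 of 78 on the opposite strand (23.1%), a difference of 4.82 points with an interval of −6.50 to 16.9. By the strand of the tRNA gene itself, 34 of 162 plus-strand and 32 of 174 minus-strand genes were bound (21.0% and 18.4%).

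Genes near the start of a coding gene were bound more often. Of 69 tRNA genes within 500 bp of an annotated coding start, 20 were bound (29.0%), against 46 of 267 farther away (17.2%), a difference of 11.8 points with an interval of 1.14 to 24.0. With each summit given to its nearest tRNA gene only, it was 10.4 points (0.220 to 22.4), and it was not computed in the other lists or windows. The median distance to the nearest coding start was 1064 bp at bound genes and 1752 bp at the others. The medians of ranked signal did not follow this order, with 41.4 near a coding start and 45.0 farther away.

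Most autosomal tRNA genes stand alone. Of the 336 genes, 99 have another tRNA gene start within 1000 bp and 237 have none. Of the 99, 26 were bound (26.3%, 18.6% to 35.7%), against 40 of 237 (16.9%, 12.6% to 22.2%), a difference of 9.38 points with an interval of 0.0733 to 19.7. Part of this is 1 summit counted at 2 genes. With each summit given to its nearest tRNA gene only, the difference was 3.32 points with an interval of −5.23 to 13.2.

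Runs of neighbouring genes numbered 45, and 15 of them held a bound gene. Of 38 pairs, 10 had both genes bound, 3 had 1 bound and 25 had none, and 8 pairs of bound genes had the same strongest summit. At the glycine pair Y43D4A.t1 and Y43D4A.t2 each gene had a summit of its own, with 86.7 and 90.4. At the valine pair T28D6.t1 had 87.4 and T28D6.t2, of 31.9, was ranked only. The pairs thus included both shared and separate peaks.

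The longest runs held 4 genes each. In the run IV:16398384-16400967 all 4 genes are on the plus strand, and bound and unbound genes alternate. The alanine gene Y65A5A.t1 had 40.4, the alanine gene Y65A5A.t2 79.97 (31.5 in replicate 1 and 49.9 in replicate 2), the valine gene Y65A5A.t3 52.4 and the histidine gene Y65A5A.t4 68.0 (47.0 and 22.3). Y65A5A.t2 and Y65A5A.t4 were bound, and Y65A5A.t1 and Y65A5A.t2 are identical in sequence. In the run of glycine genes I:9327424-9328701 none was bound, although C12C8.t4 and C12C8.t3 shared a signal of 68.8. Runs of 3 numbered 5, and only K04C2.t3, in 1 of them, was bound.

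At most bound genes the summit lay inside the gene, and at the rest it lay beside it. Along the direction of transcription the summit was a median of 17.5 bp past the start (middle 50% of genes from −11.5 to 47.2 bp, whole range −198 to 220 bp). It fell inside the gene in 39 of 66 cases, upstream of the start in 20 and past the end in 7, and within 50 bp of the start in 45. The genes have a median length of 72 bp. All 61 summits belong to peaks 280 bp wide, which is wider than the gene, so the intervals do not separate the A box from the B box or from the upstream flank.

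**Figure D5:**
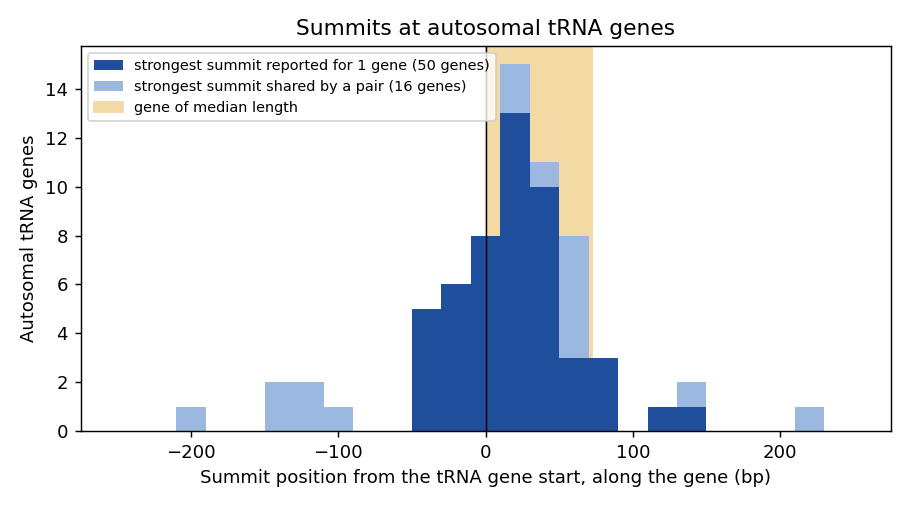
Number of bound autosomal tRNA genes (vertical axis) by the position of the strongest thresholded summit from the gene start along the direction of transcription (horizontal axis, bp, bins of 20 bp). Dark bars are 50 genes with a summit of their own, light bars 16 genes whose summit is the strongest of 2 genes, and the shaded band is a gene of the median length of 72 bp. Most dark bars lie between −50 and 90 bp, and every summit more than 50 bp upstream belongs to a pair.

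Genes with a summit of their own had a median position of 16.5 bp (−43.0 to 142 bp), so the far upstream positions came from pairs in which the summit sits at the partner. On X the median was 21.0 bp, and over all 297 autosomal genes with a ranked summit it was 22 bp.

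The internal promoter words were as frequent in bound genes as in the others. The B box word GTTCNANNC was found on the gene's strand in 319 of 336 genes (94.9%), in 95.5% of bound genes and in 94.8% of the others. It was found in 1.48% of 19973 windows of the same kind at coding starts. Its median first base was position 53.0 of the gene. The stricter and overlapping word GGTTCGA was found in 65.2% of bound genes and 64.8% of the others, and in 0.300% of coding starts. The A box word TNGCNNAG, which starts at a median of position 8, was found in 43.9% and 46.7%, and in 3.80% of coding starts.

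Flanking words were also looked for. A run of TTTT within 40 bp past the end, of the kind that ends a polymerase III transcript, was found in 97.0% of bound genes and 99.3% of the others, and in 38.5% of the windows at coding starts. The word TATAA within 60 bp upstream was rare, in 5 of 66 bound genes (7.58%) and 10 of 270 others (3.70%), and in 15.2% of coding starts. The upstream GC content had medians of 46.7% and 43.3%. Of 17 genes without the B box word, 3 were bound, which is 17.6% with an interval of 6.19% to 41.0%. A match is a match of letters and shows no factor at the site.

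The tRNA genes of X were bound somewhat more often and reached higher signals. Of 276 X genes 73 were bound (26.4%, 21.6% to 32.0%), a difference from the autosomes of 6.81 percentage points with an interval of 0.132 to 13.5. Bound X genes had a median signal of 81.5 and a maximum of 154, against 72.1 and 110.0 on the autosomes. The lower edge of that interval is close to 0, and with each summit given to its nearest gene only the difference was 4.24 points (−2.08 to 10.7).

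Clustering differed between the 2 sets, since 131 of 276 X genes but 99 of 336 autosomal genes have a tRNA neighbour within 1000 bp. Among genes with no such neighbour, 39 of 145 on X (26.9%) and 40 of 237 on autosomes (16.9%) were bound, a difference of 10 points with an interval of 1.60 to 18.8. With runs counted as 1 locus, 59 of 198 loci on X (29.8%) and 55 of 282 autosomal loci (19.5%) were bound. The own thresholded list of replicate 1 gave 10.9% on X and 7.44% on autosomes, and replicate 2 gave 9.78% and 2.68%.

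Protein-coding genes in lists for RNA polymerase III, tRNA processing and aminoacyl-tRNA synthetases were also examined at their starts. Of the genes named in these lists, 23 of 24, 13 of 15 and 31 of 31 were matched to the annotation. Of 23 genes for RNA polymerase III subunits and its factors, none was bound at its start, 12 had a ranked summit and 2 (8.70%) reached the strongest 10% of peaks, led by rpac-19, which encodes a subunit shared with RNA polymerase I, at 54.5. Of 13 genes for tRNA processing and modification none was bound, 6 had a ranked summit and 1 (7.69%) reached the strongest 10%, led by hoe-1, which encodes the nuclease that trims the tRNA 3′ end, at 40.5. Of 31 aminoacyl-tRNA synthetase genes, which charge tRNAs with their amino acids, none was bound, 18 had a ranked summit and 4 (12.9%) reached the strongest 10%, where all coding genes had 6.54%. The highest of these were ears-2 at 50.7, aars-1 at 46.5 and iars-2 at 44.6. With 0.265% of all coding genes bound, lists of this size would on average hold fewer than 1 bound gene, so the counts of 0 do not set them apart. The ranked shares of 52.2%, 46.2% and 58.1% lie around the 52.5% of all coding genes.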

How the data were processed

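ZIP-11 ChIP-seq peaks of 2 biological replicates, per the labels, were analysed on assembly ce11, the build of the Ensembl release 115 annotation (WBcel235). Per the file headers and notes deposited by the authors, the lists are IDR peaks made from alignments with 1 control alignment. Which aligner and which peak caller were used is not given in the sources used here, nor are versions. The signal value of each peak and the −log10 of its IDR are those the authors deposited. Each sample's values come from its own list.

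Summits (start plus offset) were matched to gene starts within 250 bp on either side with Python 3.11.15, pandas 2.3.3, numpy 2.4.6 and scipy 1.17.1. The matching was tested on simulated data. A gene's signal is that of its strongest summit. Isotypes come from RefSeq, which matched 336 of 336 genes. With 1 group there is no test between samples. Shares have Wilson and differences Newcombe intervals at 95%, over genes. Genes named are the 12 strongest bound with 1 gene per summit, the strongest bound of each isotype, the 3 bound genes of lowest signal, the 5 others of highest −log10 IDR and bound genes of the longest runs. Other genes were named after their values were seen. The members and lists were chosen with earlier results of these data known. Alternatives changed the list, the IDR threshold, the window, the assignment of shared summits, the neighbour distance and the uniqueness of the sequence. For the differences by copy number and by distance to a coding start, only the assignment of shared summits was changed. Mitochondrial tRNA genes were not used here.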

Additional observations from a re-analysis of the deposited data

How the results depend on the processing

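The bound share of autosomal tRNA genes depended on the list. It was 19.6% in the pooled list, 7.44% among the upper 50% of peaks by signal, 34.2% at an IDR under 0.05 and 1.19% at an IDR under 0.001. In the lists of single samples, which leave out the other replicate, it ran from 2.68% to 7.44%. It stayed between 17.9% and 20.1% with other windows, with each summit given to its nearest tRNA gene, with repeated starts left out and in the conservative list. The difference between intronic genes and those outside coding genes was −9.25 points at an IDR under 0.05 (interval −19.6 to 1.13), against 0.256, and from −2.72 to −0.999 in the lists of single samples. These intervals all include 0.

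The difference between X and autosomal genes was positive under all alternatives tried, but its interval included 0 in the list of replicate 1 (3.43 points, −1.14 to 8.26), at an IDR under 0.05 (5.63, −2.03 to 13.3), with summits within 100 bp (4.61, −1.74 to 11.1) and with the nearest gene only (4.24). Counting loci, leaving out copies from a set, and the nearest-gene values for copy number, sets and coding starts were added after the data were seen. Counting loci gave 10.3 points (2.52 to 18.2). The difference for genes with a neighbour was positive throughout, yet its interval excluded 0 only in the pooled list with summits within 250 or 500 bp of the start or within 250 bp of either end. It was 1.93 to 2.34 in the lists of single samples. The median summit position was 17.5 bp in the pooled list, 8 to 11.0 bp in the lists of single samples, 23 bp with the nearest gene only, 26 bp at an IDR under 0.05, 28 bp in the conservative list and 40.5 bp at an IDR under 0.001, which left 4 genes. The causes of these changes were not tested beyond the fewer or further peaks each list holds. No paired analysis was possible because both samples belong to 1 group. Without read counts, a gene outside a list cannot be called free of signal.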
